A study of Mus musculus with 6 samples.

Results

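Serine proteases, the plasminogen activators and their receptor, and the serpin and Kunitz inhibitors that restrain them were examined across 6 RNA libraries of 4T1, a mouse breast cancer cell line. The genes were chosen by a rule on symbols, with earlier results of these data known. The rule took all numbered Prss, Tmprss and Klk genes and the serpins of clades A to I without the collagen chaperone Serpinh1. Plau, Plaur, Plat, St14, Spint1, Spint2, Htra1, Htra3, Masp1 and Hpn were added by name. Of 31017 rows in the count table, 153 met this rule. In 3 libraries (FGFR2 KO, replicates 1 to 3) Cas9 and guides against FGFR2, a cell-surface kinase that binds fibroblast growth factors, had been delivered by nucleofection. In the other 3 libraries (control, replicates 1 to 3) the cells had received Cas9 with control guides. Both groups were cultured in collagen I gels, which were dissolved with collagenase before RNA was extracted and polyadenylated RNA was sequenced with a stranded kit. The labels do not say whether the KO cells were a pool or a single clone, nor which collagen concentration a library had, nor whether replicates were cultured separately. The p-values therefore measure library-to-library spread, part of which may be technical.

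Serine proteases cut proteins with a reactive serine, and most are made as inactive precursors that another protease must cleave. In the plasminogen system, urokinase (Plau), held at the cell surface by its receptor (Plaur), and tissue plasminogen activator (Plat) turn plasminogen into plasmin, which dissolves fibrin and activates other matrix-degrading enzymes. Serpins are bait proteins: the protease cleaves an exposed loop and is trapped in a covalent complex, while Kunitz inhibitors such as Spint1 block the active site reversibly. Carcinoma cells are known to use this machinery at their surface when they move through collagen-rich tissue.

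Among the well-measured genes, secreted and membrane proteases differed widely between the groups, in both directions. Prss23 was 11.7-fold and Masp1 9.07-fold higher in KO than in control libraries, and Prss22 and Tmprss11e were 4.52-fold and 2.28-fold lower. The activators Plau and Plat fell by less, and Plaur, St14, Spint2 and Htra1 did not pass the test. Expression is given as CPM, a gene's counts scaled to a common library total after TMM normalization, and differences as log2 fold changes of KO over control with standard errors (SE). The test was edgeR's quasi-likelihood test with Benjamini-Hochberg adjustment over all 12158 tested genes, and a gene was called to rise or fall at an adjusted p below 0.05.

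Library totals were 18635037 to 20171309 counts for KO and 15531790 to 20447719 for control. Replicates of a group differed by more than counting noise but far less than the groups did, the chi-square divided by its degrees of freedom being 3.75 to 4.69 among KO libraries, 2.28 to 2.64 among control libraries and 41.4 to 48.3 across groups. Fgfr2 stood at 101, 81.2 and 95.2 CPM in KO replicates 1 to 3, against 96.9, 95.9 and 106 CPM in control replicates 1 to 3, so the groups overlapped (log2 fold change -0.11, SE 0.056, edgeR adjusted p = 0.113). A gene total of this kind does not check the label, because a small edit need not lower the transcript, and the cut exon is not given. Among markers of the carcinoma cells, Krt8, Krt18, Krt7, Cdh1, Epcam and Cldn4 summed to 4111 to 4189 CPM in KO and 4980 to 5089 CPM in control libraries. Of these, 1 rose and 5 fell, where 54.6% of all tested genes were called, 27.1% up and 27.5% down. Their log2 fold changes ran from -0.61 (Krt18) to 0.25 (Cdh1), with Krt8 at -0.16 and Krt7 at -0.18.

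Of the 153 genes, 73 had no count in any library, 26 had 1 to 9 counts in total, and 34 were abundant enough to be tested. Of these 34, 15 rose and 11 fell, or 76.5%, where 54.6% of all tested genes were called, 27.1% up and 27.5% down. Against a minimum fold change of 1.5 (edgeR's glmTreat), 15 of the 34 passed, beside 7.46% of all tested genes. At least 2-fold changes were called for 13 of the 34 (38.2%), against 6.75% of all tested genes, and the median absolute log2 fold change was 0.86 against 0.21. The median with its sign was -0.05, beside -0.01 over all tested genes. The low-count filter favours genes that are high in one group: Serpinb2, Serpinb9b, Serpina3i, Tmprss4 and Prss46 passed it only through the KO libraries, and Serping1 and Htra3 mainly through the control libraries. The genes of the set were also chosen with earlier results of these data known. These counts, shares and medians are therefore no support for a change of the set. Of the 27 genes that passed in both groups, 10 rose, 10 fell and 7 were not called. KO and control values did not overlap for 28 of the 34 genes, nor for 59.5% of all tested genes.

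**Figure D1:**
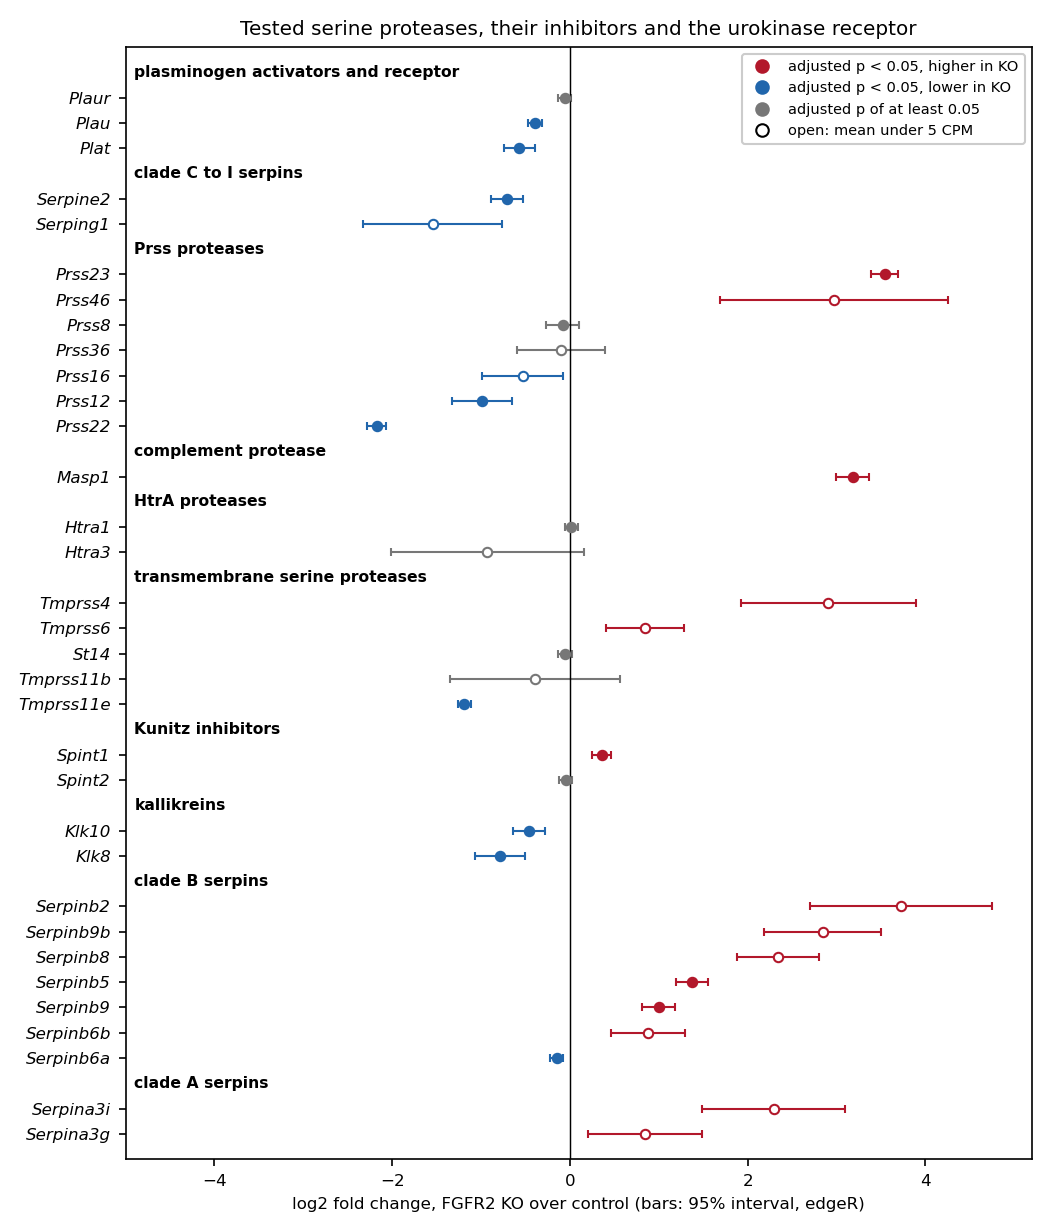
Log2 fold change of KO over control for 33 tested genes, grouped by family, with 95% intervals from edgeR as bars. Filled points average 5 CPM or more; red genes rose, blue genes fell and grey genes were not called. Prss23 (3.54) and Masp1 (3.18) lie far to the right and Prss22 (-2.18) far to the left of well-measured genes, and the clade B serpins lie to the right except Serpinb6a.

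The plasminogen activators were lower in KO libraries by modest amounts. Plau (chromosome 14, 20836660 to 20843385, mm10), which encodes urokinase, had 197, 195 and 190.3 CPM in KO replicates 1 to 3, against 240.4, 260.3 and 263 CPM in control replicates 1 to 3. The groups did not overlap, and Plau fell by 0.39 on the log2 scale (SE 0.039, edgeR adjusted p = 9.90e-11). Plat (chromosome 8, 22757727 to 22782844), whose product activates plasminogen mainly on fibrin, had 17.9, 17.5 and 16.3 CPM in KO libraries, against 24.0, 28.1 and 24.4 CPM in control libraries. Every KO value was below every control value, and Plat fell by 0.57 (SE 0.086, edgeR adjusted p = 6.79e-07). Plaur (chromosome 7, 24462484 to 24475968), the anchor that concentrates urokinase on the membrane, had 243, 242 and 245 CPM in KO libraries and 256, 244 and 260 CPM in control libraries. Its groups overlapped, and the log2 fold change of -0.06 did not pass the test (95% interval -0.13 to 0.02, edgeR adjusted p = 0.187).

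Of the inhibitors of the activators described here, 1 fell and 1 rose. Over all tested genes, 54.6% were called, 27.1% up and 27.5% down. Serpine2 (chromosome 1, 79794197 to 79861180), or protease nexin 1, inhibits thrombin as well as urokinase. It had 18.2, 15.4 and 16.8 CPM in KO libraries, against 24.6, 29.8 and 27.8 CPM in control libraries, without overlap, and fell by 0.71 (SE 0.088, edgeR adjusted p = 1.27e-08). Serpinb2, plasminogen activator inhibitor 2, was scarce, with 74, 26 and 47 counts in KO libraries, against 0, 6 and 4 counts in control libraries. Serpinb2 passed the low-count filter only through the KO libraries, so its rise is a description. It rose by 3.73 on the log2 scale (SE 0.51, edgeR adjusted p = 8.45e-08), and the fold change, 13.2 with all libraries, was 20.2 without control replicate 2. Serpinf2, the plasmin inhibitor alpha 2-antiplasmin, was too low to test, with 0, 5 and 5 counts in KO libraries and 0 in each control library.

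Scaled for exon length, Plau transcripts stood to Plaur transcripts at 0.897, 0.891 and 0.859 to 1 in KO replicates 1 to 3, against 1.04, 1.18 and 1.12 to 1 in control replicates 1 to 3. The groups did not overlap, with means of 0.882 ± 0.0208 in KO and 1.11 ± 0.0703 in control libraries (SD, n = 3 each), and an exact two-sided permutation test of 3 against 3 libraries gave p = 0.1, the smallest it can give.

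**Figure D2:**
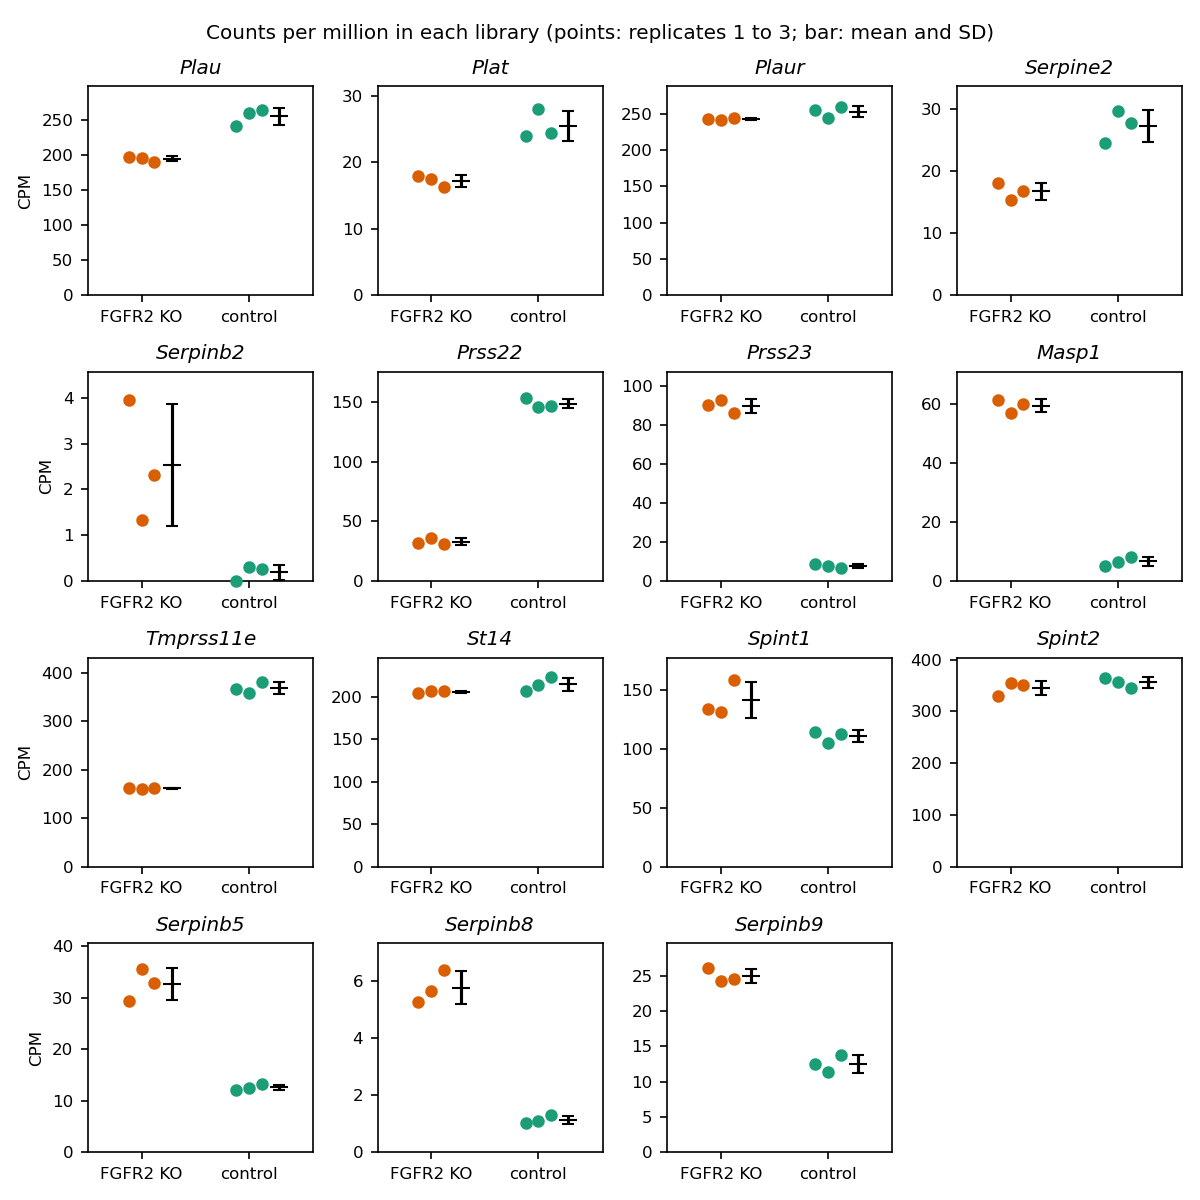
CPM in each library for 15 genes, KO at the left and control at the right of each panel; points are replicates 1 to 3 and bars are means with SD. Prss23 and Masp1 stand high in all 3 KO libraries, Prss22 and Tmprss11e stand low in all 3, and Plaur and Spint2 overlap between the groups.

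Among the Prss proteases measured well, the 2 with the widest differences moved in opposite directions. Prss23 (chromosome 7, 89507783 to 89527187) encodes a conserved secreted protease whose substrates are poorly known. It had 89.9, 92.8 and 85.9 CPM in KO replicates 1 to 3, against 8.67, 7.43 and 6.84 CPM in control replicates 1 to 3. On the log2 scale Prss23 rose by 3.54 (SE 0.075, edgeR adjusted p = 8.16e-31), the 13th largest rise among 10063 tested genes whose mean was 5 CPM or more. Prss22 (chromosome 17, 23993534 to 23998100) encodes tryptase epsilon, a secreted epithelial protease known to activate the urokinase precursor in vitro. It had 31.9, 36.1 and 30.8 CPM in KO libraries, against 153, 146 and 147 CPM in control libraries. Prss22 fell by 2.18 on the log2 scale (SE 0.053, edgeR adjusted p = 7.30e-29), the 22nd largest fall. The length-scaled ratio of Prss22 to Prss23 was 1.01 to 1.11 in the KO libraries, against 50.3 to 61.0 in the control libraries, so that transcripts of both genes were about equally abundant in KO cells. Prss23os, a transcript annotated opposite Prss23, had 13 counts over the KO and 1 over the control libraries. Their annotated exons overlap on opposite strands and the strand setting of the counting is not given in the sources used here, so its reads cannot be assigned with certainty, but they are few beside the 1681 to 1817 Prss23 counts in KO libraries.

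Of the other tested Prss genes, 2 were called to fall, 1 rose and 2 were not called, where 54.6% of all tested genes were called. The gene that rose, Prss46, passed the low-count filter only through the KO libraries. Prss12, or neurotrypsin, which cleaves agrin at synapses, had 3.16, 4.24 and 3.26 CPM in KO libraries, against 7.09, 7.39 and 6.71 CPM in control libraries, and fell by 0.99 (SE 0.17, edgeR adjusted p = 4.21e-06). Prss46 rose on few reads, with 14, 18 and 13 counts in KO libraries, against 2, 2 and 1 in control libraries (log2 change 2.97, SE 0.63, edgeR adjusted p = 1.48e-04). Prss16, known from the thymus, had 45, 38 and 62 counts in KO and 64, 67 and 62 counts in control libraries. Its fall of 0.53 (edgeR adjusted p = 0.0429) was lost with DESeq2 (adjusted p = 0.0744) and when any 1 of 5 libraries was left out, and held without KO replicate 3. Prss8, or prostasin, a membrane-anchored partner of matriptase in epithelia, averaged 17.4 ± 1.30 CPM in KO and 18.4 ± 1.40 CPM in control libraries (SD, n = 3 each) and did not pass the test (95% interval of the log2 fold change -0.27 to 0.11, edgeR adjusted p = 0.471). Prss36 did not pass either, at 2.26 CPM in KO and 2.43 CPM in control libraries (edgeR adjusted p = 0.744).

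Masp1 (chromosome 16, 23449417 to 23520815), which encodes a protease of the lectin pathway of complement, had 61.3, 57.0 and 60.2 CPM in KO replicates 1 to 3, against 5.23, 6.55 and 8.07 CPM in control replicates 1 to 3. On the log2 scale Masp1 rose by 3.18 (SE 0.091, edgeR adjusted p = 6.37e-27), the 15th largest rise. The gene makes several products by alternative splicing, and a total per gene does not separate them. Serping1, the C1 inhibitor that also restrains complement proteases of the lectin pathway, was low and moved the other way. It had 9, 18 and 5 counts in KO libraries, against 31, 31 and 25 in control libraries, and fell by 1.54 (SE 0.39, edgeR adjusted p = 9.11e-04). Serping1 passed the low-count filter mainly through the control libraries, so its fall is a description. Without KO replicate 2 it fell by 2.14. Htra1, a secreted protease of matrix proteins, stayed at 324, 325 and 333 CPM in KO libraries and 328, 315 and 328 CPM in control libraries. The difference did not pass the test, with a 95% interval of -0.05 to 0.09 on the log2 scale (edgeR adjusted p = 0.691). Htra3 had at most 11 counts in any library and did not pass the test (edgeR adjusted p = 0.141).

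Proteases anchored in the plasma membrane showed one strong fall. Tmprss11e (chromosome 5, 86705186 to 86745815), also called DESC1, belongs to the HAT/DESC group of epithelial membrane proteases. It was the member with the most reads in each control library, and it had 162, 161 and 163 CPM in KO replicates 1 to 3, against 367, 359 and 382 CPM in control replicates 1 to 3. The groups were far apart, and Tmprss11e fell by 1.19 (SE 0.037, edgeR adjusted p = 1.13e-25). Its neighbour Tmprss11b, of the same group, had 7 to 13 counts in KO and 5 to 19 counts in control libraries and did not pass the test (edgeR adjusted p = 0.496). St14 (chromosome 9, 31089402 to 31131853), or matriptase, activates prostasin, urokinase and the precursor of hepatocyte growth factor. It had 205, 206 and 207 CPM in KO libraries, against 207, 214 and 223 CPM in control libraries. The lowest control library lay just above the highest KO library, and the difference did not pass the test (log2 fold change -0.06, 95% interval -0.14 to 0.02, edgeR adjusted p = 0.192). Tmprss4, which is often studied in carcinoma, had 28, 27 and 29 counts in KO libraries, against 5, 1 and 4 in control libraries, and rose by 2.91 (SE 0.49, edgeR adjusted p = 3.78e-06). Tmprss4 passed the low-count filter only through the KO libraries, so its rise is a description. Tmprss6, or matriptase-2, known as a brake on hepcidin in liver, had 75, 88 and 77 counts in KO libraries, against 47, 35 and 41 in control libraries, and rose by 0.84 (SE 0.22, edgeR adjusted p = 0.0013). Tmprss2, the androgen-responsive protease of prostate and airway, was too low to test, with 11, 16 and 3 counts in KO libraries and 1, 3 and 0 in control libraries.

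The Kunitz inhibitors of matriptase differed from each other. Spint1, which encodes HAI-1, had 134, 132 and 159 CPM in KO libraries, against 115, 105 and 112 CPM in control libraries. KO replicate 3 was the highest, the groups did not overlap, and Spint1 rose by 0.36 (SE 0.052, edgeR adjusted p = 4.08e-07). Spint2, which encodes HAI-2, had 330, 355 and 350.3 CPM in KO libraries and 365, 357 and 346 CPM in control libraries, with overlapping groups (log2 fold change -0.05, 95% interval -0.12 to 0.03, edgeR adjusted p = 0.304). Per exon length, Spint1 and Spint2 together stood at 4.51, 4.65 and 4.96 times the St14 level in KO libraries, against 4.48, 4.15 and 3.99 times in control libraries (exact two-sided permutation p = 0.1, the smallest possible).

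Only 3 of the 26 kallikreins, a family of secreted trypsin- and chymotrypsin-like proteases clustered on chromosome 7, had 10 or more counts, and 20 had none. Klk10 had 17.0, 16.4 and 20.1 CPM in KO libraries, against 23.7, 26.5 and 23.2 CPM in control libraries, and fell by 0.46 (SE 0.089, edgeR adjusted p = 3.67e-05). Klk8, or neuropsin, had 5.62, 7.51 and 5.83 CPM in KO libraries, against 9.05, 11.9 and 11.7 CPM in control libraries, and fell by 0.78 (SE 0.14, edgeR adjusted p = 1.03e-05). Neither gene's groups overlapped. Klk9 had 9 counts in the KO and 6 in the control libraries.

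Clade B serpins, which lack a classical secretion signal and act mainly inside cells, gave 6 of the 15 rises. Of 26, 12 had no count and 7 were tested, of which 6 rose and 1 fell, where 54.6% of all tested genes were called and 27.1% rose. Serpinb2 and Serpinb9b, among the 6, passed the low-count filter only through the KO libraries, so the count is a description. Serpinb5 (chromosome 1, 106861173 to 106883348), or maspin, a member without protease inhibition that is known from mammary epithelium, had 29.5, 35.6 and 32.9 CPM in KO replicates 1 to 3, against 12.2, 12.4 and 13.2 CPM in control replicates 1 to 3. The groups were well apart, and Serpinb5 rose by 1.38 (SE 0.088, edgeR adjusted p = 3.80e-16). Serpinb8, whose human protein inhibits furin, had 5.24, 5.62 and 6.37 CPM in KO libraries, against 1.04, 1.08 and 1.29 CPM in control libraries, and rose by 2.34 (SE 0.23, edgeR adjusted p = 3.33e-11). Serpinb9 (chromosome 13, 33003250 to 33017957), an inhibitor of granzyme B that shields cells from cytotoxic lymphocytes, had 26.2, 24.2 and 24.5 CPM in KO libraries, against 12.5, 11.3 and 13.8 CPM in control libraries. It rose by 1.00 (SE 0.092, edgeR adjusted p = 1.15e-11). Its paralog Serpinb9b was less abundant and rose too, with 55, 61 and 65 counts in KO libraries, against 7, 9 and 7 in control libraries (log2 change 2.84, SE 0.33, edgeR adjusted p = 2.27e-09).

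The most abundant clade B gene was the exception. Serpinb6a (chromosome 13, 33917918 to 34002794), related to the human inhibitor of cathepsin G, had 318, 313 and 306 CPM in KO libraries, against 345, 351 and 341 CPM in control libraries, and fell by 0.15 (SE 0.035, edgeR adjusted p = 5.37e-04). Serpinb6b rose by 0.88, at 5.22 ± 1.19 CPM in KO and 2.85 ± 0.568 CPM in control libraries (SD, n = 3 each, edgeR adjusted p = 4.16e-04). Summed over all clade B genes, the level was 381 to 393 CPM in KO and 374 to 381 CPM in control libraries, since Serpinb6a held most of the reads. Serpinb1a, related to the human inhibitor of neutrophil elastase, had 6, 2 and 9 counts in KO libraries and 0 in each control library, too few to test.

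By position, the clade B genes lie in 2 blocks (neighbours within 500000 bases of each other), and in each block most genes were too low to test. In the chromosome 1 block of 11 genes (106861173 to 107610484), Serpinb5 at one end and Serpinb2 and Serpinb8 at the other rose, and the 8 others had no counts. In the chromosome 13 block of 15 genes (32842092 to 34002794), the adjacent Serpinb6b, Serpinb9 and Serpinb9b rose and Serpinb6a, at the far end, fell. The clade A block on chromosome 12 held 23 genes, of which 10 had no count and 2 were tested. Over all tested genes, 27.1% rose. In these blocks Serpinb2, Serpinb9b and Serpina3i passed the low-count filter only through the KO libraries, so the directions by position are a description.

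**Figure D3:**
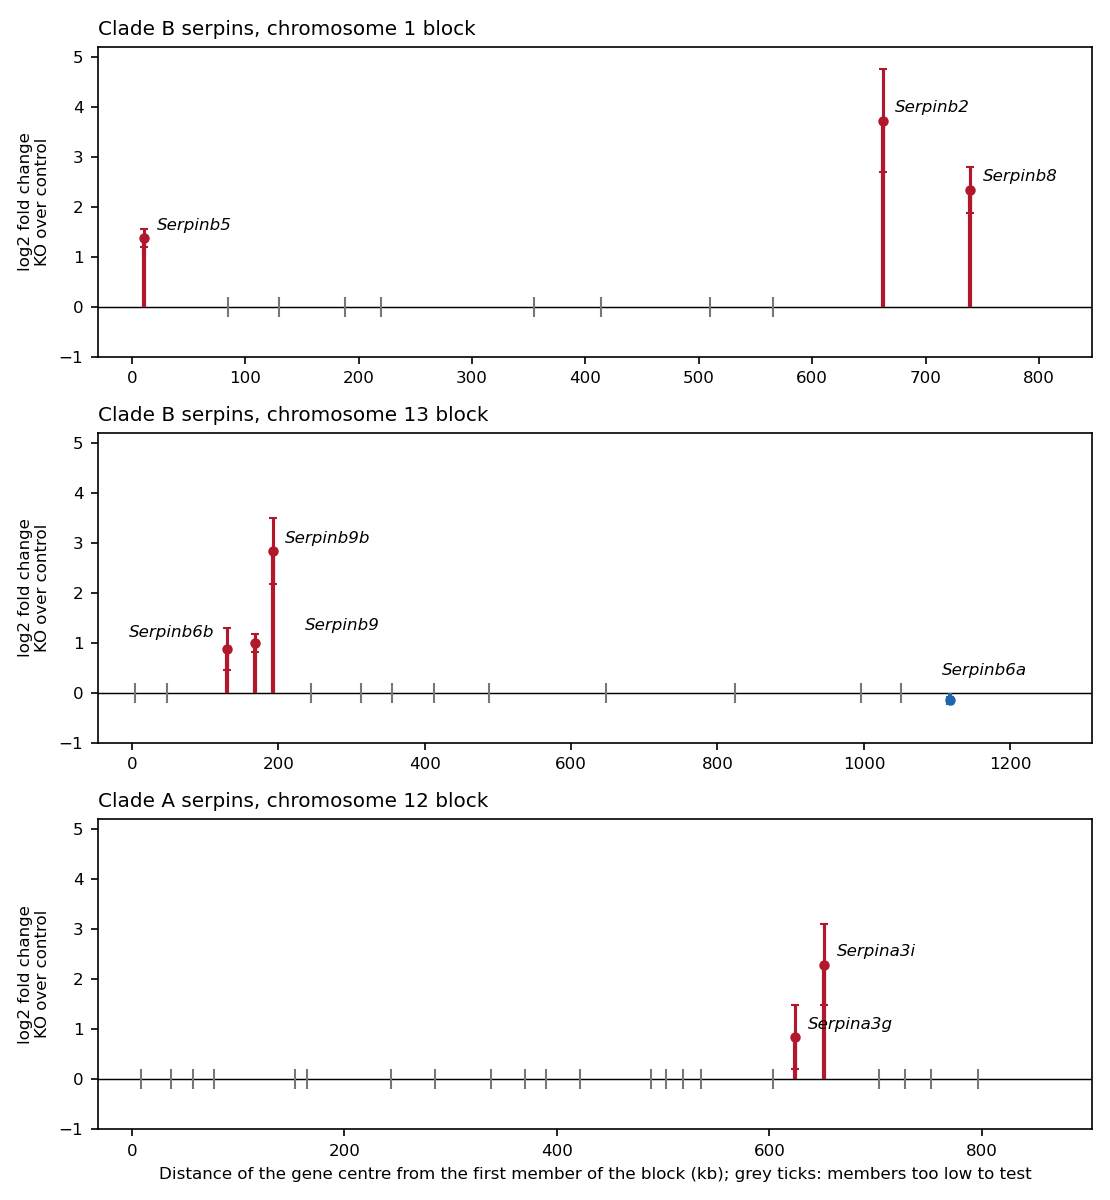
Log2 fold change (KO over control, stems drawn from 0, capped bars are 95% intervals from edgeR) of serpin genes in the chromosome 1, 13 and 12 blocks, placed by distance in kb from the first gene of the block; grey ticks are genes too low to test. Each tested gene lies above zero except Serpinb6a, at -0.15, and most genes of each block were too low to test. Serpinb2, Serpinb9b and Serpina3i passed the low-count filter only through the KO libraries.

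The promoters of the 3 genes that rose in the chromosome 1 block are shown because each holds a match to TGANTCA. This string is a loose form, with any middle base (N), of the AP-1 site bound by Fos and Jun proteins. The match has A in the middle in Serpinb5 and Serpinb2 and G in Serpinb8. It is printed in capitals in the 250 bases before the RefSeq start (GRCm38.p6, plus strand, 5′ to 3′).
Serpinb5 (chr1:106860925-106861174): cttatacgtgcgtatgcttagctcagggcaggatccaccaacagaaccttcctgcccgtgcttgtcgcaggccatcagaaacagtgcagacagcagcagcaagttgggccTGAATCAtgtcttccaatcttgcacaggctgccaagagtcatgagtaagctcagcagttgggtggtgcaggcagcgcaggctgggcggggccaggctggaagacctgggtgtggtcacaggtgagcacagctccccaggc
Serpinb2 (chr1:107511173-107511422): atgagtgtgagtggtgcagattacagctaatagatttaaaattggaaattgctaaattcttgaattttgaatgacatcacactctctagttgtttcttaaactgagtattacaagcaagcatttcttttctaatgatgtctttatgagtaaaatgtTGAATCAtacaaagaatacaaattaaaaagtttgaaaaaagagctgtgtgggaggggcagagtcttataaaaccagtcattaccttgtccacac
Serpinb8 (chr1:107589756-107590005): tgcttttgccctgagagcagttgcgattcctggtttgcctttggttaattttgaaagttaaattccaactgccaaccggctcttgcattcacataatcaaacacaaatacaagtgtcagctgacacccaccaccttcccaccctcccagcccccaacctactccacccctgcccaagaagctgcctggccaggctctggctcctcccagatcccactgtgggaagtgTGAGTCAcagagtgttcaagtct

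The matches begin 140 bases before the start of Serpinb5, 94 before that of Serpinb2 and 23 before that of Serpinb8. RefSeq windows (250 bases before to 50 after each start, both strands searched) were matched for 22 of the 34 tested genes, and not, among others, for Plau, Plat, Serping1, Prss22, Prss8, Prss16, Masp1, St14, Tmprss4, Tmprss6 and Tmprss11e. A TGANTCA match was present for 5 of 11 genes that rose (Serpinb2, Serpinb5, Serpinb8, Prss23 and Spint1), for none of 5 that fell and for 2 of 6 that were not called (Plaur and Prss36), beside 6.52% of 9403 tested genes with a window and 7.81% of all windows. Among the 11, Serpinb2, Serpinb9b, Serpina3i and Prss46 passed the low-count filter only through the KO libraries. The motifs were also chosen with earlier results of these data known, so these counts are a description. Prss23 has 7 windows at alternative starts, of which any could match, and the window at the start of its GENCODE gene model had no match. Of the other motifs searched, the ETS core CCGGAA was found for 1 of 11 genes that rose and 2 of 5 that fell (32.6% of tested genes), the TEAD core GGAATG for 2 and 1 (14.3%), the hypoxia element ACGTG for 1 and 1 (29.7%), and the TATA box TATAAA for 1, Serpinb2, and 0 (8.38%). No string contains another, although CCGGAA and GGAATG can share letters, and a match describes letters, not a site or a cause.

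Clade A serpins, many of which are acute phase proteins of liver, were nearly silent. Serpina3i had 51, 31 and 30 counts in KO libraries, against 5, 10 and 6 in control libraries, and rose by 2.29 (SE 0.40, edgeR adjusted p = 7.41e-06). Serpina3i passed the low-count filter only through the KO libraries, so its rise is a description. Serpina3g, an inhibitor of cysteine cathepsins in mouse lymphocytes, had 33, 40 and 46 counts in KO libraries, against 31, 14 and 16 in control libraries. Its rise of 0.84 (edgeR adjusted p = 0.0232) was lost without KO replicate 3 (adjusted p = 0.0816), control replicate 2 (0.181) or control replicate 3 (0.0688). Both are near-identical in part to other genes of the cluster: 15.9% of the 50-base stretches of Serpina3i transcripts and 15.5% of those of Serpina3g occur in another gene's transcript, so their reads may be shared. Serpina9 had 33 counts over the KO and 1 over the control libraries (ratio 30.5, counting interval 5.11 to 1240.0), and Serpina3f had 23 and 1 (ratio 21.3, counting interval 3.46 to 877), both 95% and for counting error only. Serpina9 had 17, 10 and 6 counts in KO replicates 1 to 3, and its exons overlap Gm28577 on the same strand. Serpina3f is among the genes that share stretches with Serpina3g, so reads of both Serpina9 and Serpina3f may be shared too. Of the other clades, Serpind1, or heparin cofactor II, had 4 counts over the KO and 15 over the control libraries.

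Per kilobase of exon, the order of the abundant genes differed between the groups. The 4 highest in KO libraries were Htra1 (114 CPM per kb), Plaur (93.0), Plau (82.0) and Spint2 (75.7). In control libraries Htra1 (112), Prss22 (112), Tmprss11e (108) and Plau (108) led within a narrow range. Prss22 stood at 24.9 CPM per kb in KO libraries, next to Prss23 at 23.8, against 112 for Prss22 and 2.03 CPM per kb for Prss23 in control libraries. Together the 153 genes took 0.239% to 0.243% of all counts in KO and 0.254% to 0.260% in control libraries. In bulk RNA, fewer cells expressing a gene and less RNA per cell cannot be told apart.

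**Figure D4:**
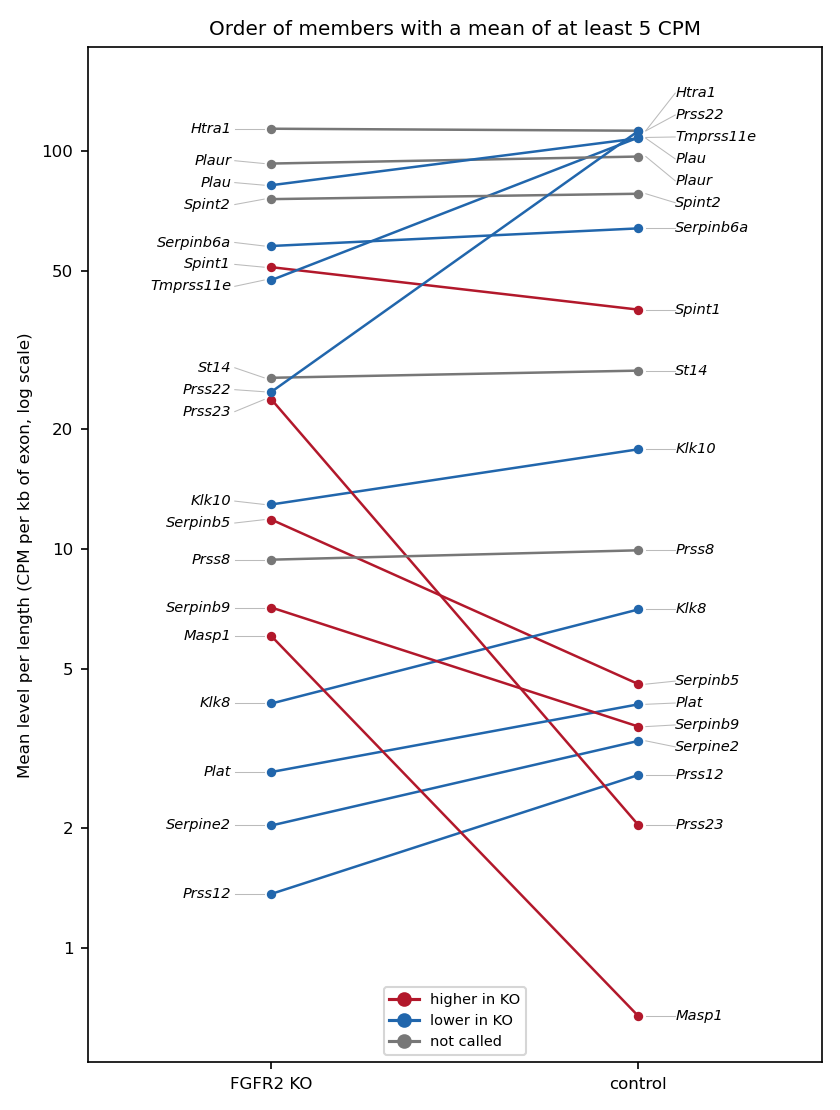
Mean level per kilobase of exon (CPM per kb, log axis) of 19 tested genes averaging 5 CPM or more, KO at the left and control at the right, each gene joined by a line coloured by its call. The Prss22 line drops steeply toward KO to meet that of Prss23 (24.9 CPM per kb for Prss22 in KO), Masp1 climbs toward KO from the lowest control level, and Htra1, Plaur, Spint2, St14 and Prss8 run nearly level.

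Genes that work with these proteases were read from lists, whose counts of called genes stand beside 54.6% called over all tested genes, 27.1% rising and 27.5% falling. The lists held few tested genes, and nothing particular to a list is read from its count. Of 17 genes of plasminogen binding, clearance and fibrinolysis, 9 were tested and 6 called, 2 rising and 4 falling (median log2 fold change -0.14). Plasminogen itself (Plg), made mainly in liver, had 6 counts over the KO and 4 over the control libraries. The annexin A2 complex, which gathers plasminogen and tissue plasminogen activator on the cell surface, was higher in both parts: Anxa2 had 1379 ± 30.0 CPM in KO and 974 ± 11.3 CPM in control libraries (log2 fold change 0.50, edgeR adjusted p = 2.04e-16), and S100a10 had 1095 ± 14.3 CPM in KO and 712 ± 17.5 CPM in control libraries (log2 fold change 0.62, edgeR adjusted p = 6.63e-19, SD, n = 3 each). Eno1, a glycolytic enzyme that also binds plasminogen at the surface, fell by 0.72 (edgeR adjusted p = 2.08e-21). Lrp1, the endocytic receptor that clears urokinase bound to its inhibitors, fell by 0.75, at 408 ± 42.0 CPM in KO and 685 ± 29.6 CPM in control libraries (edgeR adjusted p = 8.04e-17).

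Of 18 coagulation genes and protease-activated receptors, 6 were tested and 5 called, 2 rising and 3 falling (median -0.20). Tissue factor (F3), which starts coagulation, rose by 0.85 to 16.3 CPM in KO, against 9.03 CPM in control libraries (edgeR adjusted p = 9.73e-08), and F13a1, the chain that cross-links fibrin, rose by 3.31 from few reads (edgeR adjusted p = 1.80e-07). F2rl1, the receptor PAR2 that trypsin-like proteases including matriptase activate, fell by 0.36 (edgeR adjusted p = 6.76e-07). Of 15 substrates of membrane serine proteases, 7 were tested and 5 called, 3 rising and 2 falling (median 0.03): Met rose by 0.41 and Epcam fell by 0.42 (edgeR adjusted p of 1.93e-09 and 1.06e-12). The cysteine cathepsins, some of which clade B serpins can inhibit, had 5 tested genes, of which Ctsh rose by 0.74 and 4 fell, Ctsl by 0.53 and Ctsz by 0.25 among them.

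Of 35 other serine proteases, 19 were tested and 9 called, 3 rising and 6 falling (median -0.04). The proprotein convertases split, with Pcsk6 up by 1.01 (8.58 CPM in KO, 4.27 CPM in control libraries), Pcsk7 up by 0.53 and Furin down by 0.31 (edgeR adjusted p of 3.97e-07, 5.85e-07 and 4.97e-08), and the carboxypeptidase Scpep1 fell by 0.55 (edgeR adjusted p = 2.15e-13). C1rl, a relative of complement C1r, fell by 0.63 (edgeR adjusted p = 0.0329), a call lost without KO replicate 1 (adjusted p = 0.115), KO replicate 2 (0.0643), control replicate 2 (0.170) or control replicate 3 (0.0616). Of 31 other protease inhibitors, 10 were tested and 7 called, 4 rising and 3 falling (median 0.07). The secreted metalloproteinase inhibitors Timp2 and Timp1 rose by 0.87 and 0.53, while Reck, a membrane-anchored one, fell by 0.54 (edgeR adjusted p = 0.0035), at 4.61 CPM in KO and 6.74 CPM in control libraries. In the same list, the cystatin Cst6 rose by 0.99 and Cstb fell by 0.51 (edgeR adjusted p of 3.14e-23 for Timp2, 1.36e-08 for Timp1, 8.04e-10 for Cst6 and 9.77e-11 for Cstb).

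Granule serine proteases of leukocytes were close to absent. Of 20 listed, 14 had no counts, among them Elane, Ctsg, Gzma, Gzmb, Cma1 and Tpsab1, and only Mcpt8 and Gzmm could be tested. Mcpt8 fell by 0.80, at 3.54 CPM in KO and 6.22 CPM in control libraries (edgeR adjusted p = 1.92e-04), and Gzmm was not called. Markers of leukocytes summed to 15.8 to 16.9 CPM in KO and 23.0 to 25.5 CPM in control libraries, with Adgre1 and Cd3e at 0. Of the 3 tested, only Cd68 was called, lower in KO (5.97 against 13.7 CPM in control libraries). Cd14 (9.10 CPM in KO, 9.37 CPM in control libraries) and Csf1r (1.22 CPM in KO, 0.921 CPM in control libraries) were not called. Of 7 neutrophil markers 5 had no counts, of 6 mast cell markers 5 had none, and of 4 endothelial markers 2 had none. The neutrophil marker S100a8 had 1, 4 and 2 counts in KO libraries, against 0, 19 and 13 in control libraries. Prtn3, the other one detected, had 3 counts over the KO and 0 over the control libraries, and both were too low to test. Fibroblast markers summed to 39.7 to 45.4 CPM in KO and 36.3 to 38.2 CPM in control libraries, nearly all of it Pdgfra, which was not called (edgeR adjusted p = 0.143), with Lum at 0. Among the scarcer fibroblast markers, Col1a1 had 33, 18 and 21 counts in KO libraries, against 10, 9 and 5 in control libraries, and rose by 1.47 (edgeR adjusted p = 0.00338, or 0.0512 without KO replicate 1). Over the 3 libraries of a group, Dcn had 33 counts in KO and 2 in control, Pdgfrb had 26 in KO and 2 in control, and Col1a2 had 3 in KO and 1 in control, all too few to test. Liver-type markers summed to 1.28 to 1.53 CPM in KO and 1.03 to 1.85 CPM in control libraries. The part of these markers in the differences above was not tested.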

How the data were processed

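The authors deposited raw counts of reads, as whole numbers, for each gene symbol and library. Per the submitters' processing notes, STAR 2.7.9a, featureCounts, FastQC 0.11.9 and R 4.1.1 were used, and 2 builds (hg38, mm10) are listed with no stated role. Not given in the sources used here are the annotation release, the strand setting and the treatment of multi-mapping reads. Of the symbols, 98.2% occur in GENCODE M21 (mm10), which gave positions and exon lengths. Exons of Prss12, Prss8, Klk8, Tmprss4, Serpinb9b and Serpinb6a overlap a gene on the other strand, and Serpinb2 shares exon sequence with Serpinb10, so their counts are uncertain to that extent. The same holds for Serpina9, whose exons overlap Gm28577 on the same strand.

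The deposited counts were tested in R 4.3.3 with edgeR 4.0.16: filterByExpr at its defaults (minimum count 10, total 15), TMM scaling, group as the only term and the quasi-likelihood F-test. SE was taken as the absolute log2 fold change over the root of F, with a prior count of 0.125. Intervals for low counts cover counting error only. Alternatives were other scalings and filters, DESeq2 1.42.0, limma-voom (limma 3.58.1), a minimum fold change of 1.5, a replicate block and leaving out each library. The code was tested on simulated data. The genes, lists and motifs were chosen with earlier results of these data known. Every tested gene could be named, with values in each library for those called at a mean of at least 5 CPM and for the main plasminogen and matriptase genes. Genes below the filter could be named where they had at least 10 counts in all, but not all such genes were. Most of those named had more counts in KO libraries. Among those not named, Tmprss11f had 22 counts over the KO and 28 over the control libraries, Prss27 10 and 10, and Serpina3n 13 and 2. List genes could be named when called with an absolute log2 fold change of at least 0.5 or among the 3 smallest adjusted p. Some genes of the set and lists enter the counts but are not reported here.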

Additional observations from a re-analysis of the deposited data

How the results depend on the processing

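The counts of 15 genes that rose and 11 that fell were unchanged with RLE scaling, upper quartile scaling, limma-voom and the replicate number as a block, and the same 26 genes were called in each. With DESeq2 15 rose and 10 fell. Without a low-count filter 20 rose and 11 fell, the 5 additional genes being Serpina9, Serpina3f, Serpinb1a, Serpinf2 and Tmprss2. With a filter of 5 CPM on the mean, 6 rose and 9 fell, because 20 genes were left to test. Against a minimum fold change of 1.5, 11 rose and 4 fell, and 907 of all genes passed (7.46%), where 6639 passed without it; the calls of Plau, Plat, Serpine2, Spint1, Klk10, Klk8, Prss16, Serpinb6a, Serpinb6b, Serpina3g and Tmprss6 ended. Leaving out 1 library at a time, 15 to 17 genes rose, 10 or 11 fell, and 5922 to 6276 of all genes were called. Htra1, not called in any setting, changed sign with upper quartile scaling (-0.0047) and without control replicate 2 (-0.0017), where its log2 fold change was 0.02 with all libraries and -0.0017 to 0.0286 with 1 left out. Of 462 values of single genes under the alternatives, 440 kept direction and call. A gene gave no value where a setting did not test it, so calls that ended because the 5 CPM filter removed the gene are not counted among these values. Libraries with the same replicate number did not deviate together (correlations of -0.029, -0.0032 and -0.064), so the numbers were not taken as pairs. With the replicate block 6443 of all genes were called, and 15 and 11 of these genes. Depth limits the genes with few counts, and the 95% interval of the Prss46 log2 fold change ran from 1.69 to 4.26.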
